A study of Zea mays with 4 samples.

Results

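In maize kernels at 6 days after pollination (DAP), transcripts of several regulators of the storage programme were already present in the central starchy endosperm. Reads of o2 were at 0, and those of pbf1 were few on either gene model that may carry it. The 8 regulators described here were chosen by gene model identifier, and all 8 were found among the 110028 gene models of the files. They are fl3 (GRMZM2G006585), o11 (GRMZM2G147685), nkd1 (GRMZM2G129261), nkd2 (GRMZM5G884137), ohp1 (GRMZM2G016150), ohp2 (GRMZM2G007063), pbf1 (GRMZM2G146283) and o2 (GRMZM2G015534). Of these, 6 averaged at least 17.5 reads per 1000000 reads on gene models (RPM), and o2 had 0 reads in every library. The pbf1 model GRMZM2G146283 averaged 0.374 RPM. Another model with the pbf1 name in the reference gene table, GRMZM2G146267, averaged 2.73 RPM.

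The study sequenced amplified poly-A RNA of self-pollinated B73, the reference inbred line, grown in a greenhouse. The inner endosperm was cut from kernel sections by laser capture, and 4 barcoded libraries were run in 1 lane. All 4 are replicates of 1 group, so no genotype, treatment or time could be compared, and the labels do not say whether they came from separate plants or ears. SDs and tests therefore show how far these libraries lie apart, and that spread may be technical.

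The starchy endosperm fills with starch and with zeins, the prolamin storage proteins of maize. Zein genes are switched on by a network of transcription factors. Opaque2 (o2) is a bZIP factor that binds zein promoters, the Dof factor PBF (pbf1) binds the prolamin box of the same promoters, and the bZIP factors OHP1 and OHP2 are partners of O2. The bHLH factor Opaque11 (o11) and the zinc finger factors NAKED ENDOSPERM 1 and 2 (nkd1, nkd2) are known to act upstream of o2 and pbf1, and the nkd genes also act in aleurone formation. Floury3 (fl3) encodes a PLATZ-type protein of the endosperm that interacts with the RNA polymerase III machinery.

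Replicates 1 to 4 held 3432952, 5428283, 4754684 and 5477465 reads assigned to models. At this depth 3 reads, the 1-sided 95% upper limit that a count of 0 allows, correspond to 0.874, 0.553, 0.631 and 0.548 RPM in the single libraries and to 0.157 RPM over all libraries. Exact Poisson and binomial intervals below are at 95% and cover counting error only. Transcript lengths were not used here, so the order of genes given below is an order of read shares, in which a longer transcript yields more reads. Length cancels where 1 gene, or the ratio of 2 genes, is compared across libraries. The tissue label could not be checked on markers of filled starchy endosperm, since sh2, bt2, wx1 and sh1 summed to only 1.46 to 1.83 RPM. Markers of the basal endosperm transfer layer (BETL) were present, with 11 of 12 at a mean of 1 RPM or more and the regulator gene mrp1 at 0.

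The order by mean read share was fl3, o11, nkd1, ohp1, nkd2, ohp2, pbf1 and o2, and it was the same in replicates 2, 3 and 4. In replicate 1 only nkd2 and ohp2 changed places. Of the 7 pairs of neighbours, 5 held their order in 4 of 4 libraries (exact sign-flip permutation p = 0.125, two-sided, the smallest that 4 libraries can give). The exceptions were nkd2 against ohp2 and pbf1 against o2.

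**Figure D1:**
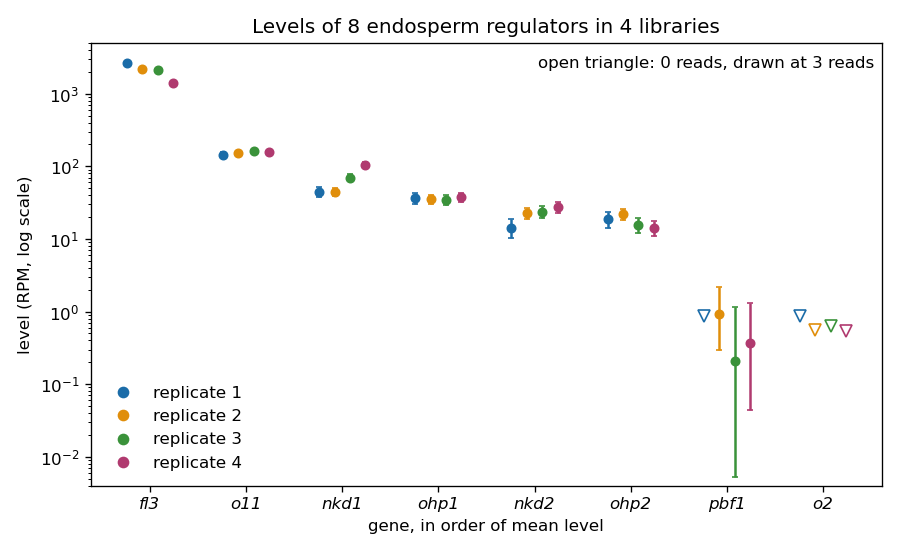
Level of each regulator in RPM on a log axis, with genes in order of mean level. Points are single libraries with exact 95% Poisson intervals, and open triangles mark 0 reads, drawn at the level of 3 reads. The fl3 points lie between 1400 and 2674 RPM, and the points from o11 to ohp2 lie between 13.98 and 161 RPM. No point of pbf1, drawn for GRMZM2G146283, exceeds 0.921 RPM.

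Among the upstream regulators, o11 stood highest and was nearly even across libraries. It had 142, 151, 161 and 159 RPM in replicates 1 to 4, from 488, 820, 765 and 869 reads. The mean was 153 ± 8.48 RPM (SD, n = 4), and the SD was 1.48 times that expected from counting alone. In read share o11 ranked 1155 among all models, above 94.5% of the models that averaged 1 RPM or more. The lowest and the highest library had overlapping Poisson intervals.

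The nkd1 gene was uneven. It had 44.0, 44.8, 69.6 and 105 RPM in replicates 1 to 4, a mean of 65.9 ± 28.8 RPM (SD, n = 4). Replicates 1 and 2 were alike, and replicate 4 was 2.39-fold above replicate 1, with Poisson intervals of 96.7 to 114 and 37.2 to 51.6 RPM. Its SD was 7.76 times the counting SD. The SD of its log2(RPM + 0.5) levels, 0.59, exceeded that of 95.8% of the 11272 models with a mean of 10 RPM or more, whose median was 0.22.

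Its duplicate nkd2 had 13.98, 22.5, 23.3 and 27.2 RPM, a mean of 21.8 ± 5.57 RPM (SD, n = 4). Here replicate 1 was low, with 48 reads, and the other libraries had 111 to 149 reads. As for nkd1, the lowest value was in replicate 1 and the highest in replicate 4, and the intervals of these 2 libraries did not overlap. The summed level of the pair was 57.97, 67.2, 93.0 and 132 RPM.

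Within the pair nkd1 gave most of the reads in every library. Its share of the nkd1 and nkd2 reads was 75.9% (exact binomial interval 69.3 to 81.6%) in replicate 1, 66.6% (61.5 to 71.4%) in replicate 2, 74.9% (70.6 to 78.9%) in replicate 3 and 79.4% (76.3 to 82.3%) in replicate 4. The ratio of nkd1 to nkd2 reads thus ran from 1.99 in replicate 2 to 3.87 in replicate 4, whose intervals did not overlap. The mean log2 ratio was 1.52 ± 0.40 (SD), above 0 in 4 of 4 libraries (exact sign-flip permutation p = 0.125).

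The O2 partner genes ohp1 and ohp2 were both present. For ohp1 the libraries had 36.1, 35.0, 34.9 and 37.6 RPM, from 124, 190, 166 and 206 reads. Its SD of 1.26 RPM was below the 2.79 RPM expected from counting alone, and its log2 SD of 0.05 was lower than that of all but 1.69% of the models at 10 RPM or more. No difference between libraries was detectable for ohp1 at this depth.

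The ohp2 gene had 18.6, 21.7, 15.6 and 14.1 RPM, with 64 to 118 reads per library. Replicate 2 was highest and replicate 4 lowest, and the lower bound of the former, 17.99 RPM, lay just above the upper bound of the latter, 17.6 RPM. The share of ohp1 in the ohp1 and ohp2 reads was 66.0% (58.7 to 72.7%), 61.7% (56.0 to 67.1%), 69.2% (62.9 to 74.9%) and 72.8% (67.2 to 77.9%) in replicates 1 to 4, with a mean of 67.4 ± 4.72% (SD, n = 4). As for nkd1, the share was lowest in replicate 2 and highest in replicate 4. The summed level of the pair stayed between 50.5 and 56.7 RPM, a narrower range than that of the nkd pair.

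**Figure D2:**
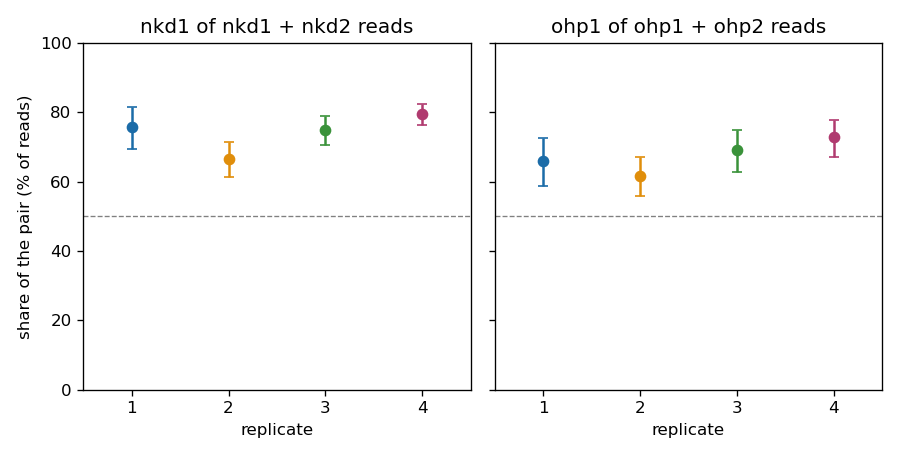
Share of nkd1 in the reads of nkd1 and nkd2 (left) and of ohp1 in the reads of ohp1 and ohp2 (right), in % per replicate, with exact 95% binomial intervals. The dashed line marks equal reads. All 8 shares lie above it, between 61.7 and 79.4%.

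The order of nkd2 and ohp2 was not resolved. Their mean log2 difference was 0.29 ± 0.58 (SD), with nkd2 higher in 3 of 4 libraries (exact sign-flip permutation p = 0.375). Without replicate 4 the difference was 0.07. The steps from o11 to nkd1, from nkd1 to ohp1 and from ohp1 to nkd2 were 1.30 ± 0.53, 0.77 ± 0.56 and 0.75 ± 0.40 on the log2 scale (SD, n = 4). The smallest single value among them was 0.28, for nkd1 over ohp1 in replicate 1.

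The zein activator genes pbf1 and o2 were at the bottom of the order. The pbf1 model GRMZM2G146283 had 0, 5, 1 and 2 reads, and its pooled level was 0.419 RPM (exact Poisson interval 0.181 to 0.826). Of its 8 reads 5 came from replicate 2, and the mean of 0.374 RPM was 0.192 RPM without that library. Single libraries were at or close to the limit of detection, so their differences cannot be read. The reference gene table assigns the identifier GRMZM2G146283, and also GRMZM2G146267, to each of 2 overlapping records, PBF and LOC103647171. GRMZM2G146267, looked at after its values were seen, had 10, 22, 11 and 9 reads, or 2.91, 4.05, 2.31 and 1.64 RPM. Which of both models carries the pbf1 transcript cannot be told apart here, and on either one the level was at most 4.05 RPM.

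The o2 model was listed at 0 in 4 of 4 libraries, or 0 of 19093384 reads. The limit of 3 reads allows a level of up to 0.157 RPM, and the exact Poisson interval one of up to 0.193 RPM. Whether the value depends on how the authors assigned reads was not tested. An actin gene model (Maz63, GRMZM2G053284) was listed at 0 too, and a single gene cannot decide this. Of 18796 models that carry a name in the reference table, 19.1% were at 0 in every library. The pooled interval of ohp2, the next higher bZIP gene, was 15.6 to 19.4 RPM.

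The most abundant regulator was fl3. It had 2674, 2188, 2107 and 1400 RPM in replicates 1 to 4, from 9181, 11876, 10016 and 7667 reads, and ranked 22 among all models by mean. Replicate 1 was highest and replicate 4 lowest, by a ratio of 1.91, and the SD of 525 RPM was 24.2 times the counting SD. Its log2 SD of 0.39 was above that of 83.9% of models at 10 RPM or more. Within each library fl3 exceeded o11 by 8.82-fold to 18.8-fold, a mean log2 difference of 3.73 ± 0.45 (SD, n = 4). It made up 91.3, 88.8, 87.4 and 80.3% of the summed level of the 8 regulators.

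**Figure D3:**
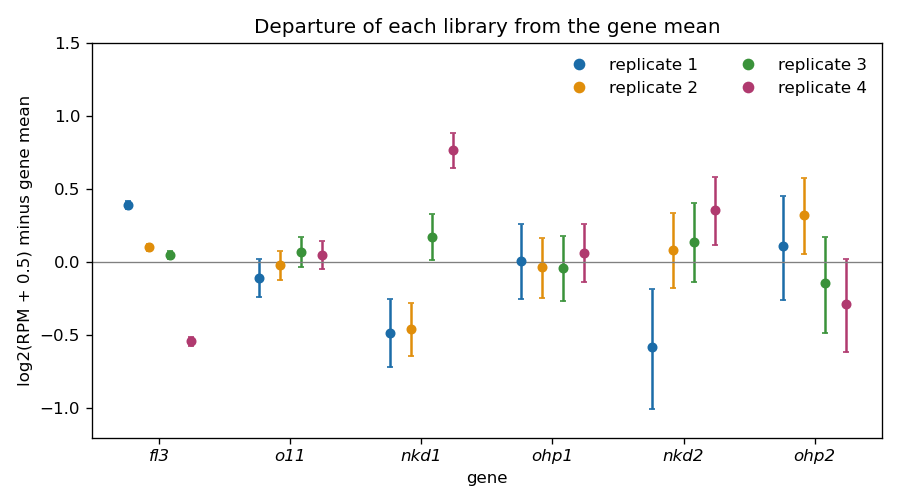
Departure of each library from the gene's own mean, on the log2(RPM + 0.5) scale, for the 6 regulators with a mean of 10 RPM or more. Bars are exact 95% Poisson intervals. Replicate 4 is lowest for fl3, at -0.54, and highest for nkd1, at 0.77, while the 4 points of ohp1 lie within 0.07 of the mean.

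A chi-square test of reads against library sizes scaled by edgeR's trimmed mean of M values (TMM), with Benjamini-Hochberg adjustment over 16516 genes, asked which genes differed between libraries beyond counting error. It called 44.1% of all genes tested. Of the 8 regulators 6 passed the filter on low reads and 4 were called, and with so few members that share is not read as a departure from the background. The adjusted p was 4.11e-300 for fl3, 7.98e-47 for nkd1, 0.000396 for nkd2 and 0.0067 for o11, and it was 0.119 for ohp2 and 0.469 for ohp1. Without replicate 3, whose deposited signal per read, 1.0039, lies near 1, the same 4 genes were called against a background of 40.8%. Without replicate 4 the background fell to 17.5%, and fl3, nkd1 and nkd2 were called but o11 was not (adjusted p = 0.162). Without replicate 1, at a background of 40%, nkd2 was not called (adjusted p = 0.104). With no filter and a library left out, a pair of choices tried after seeing the data, both o11 and nkd2 were lost without replicate 1 (adjusted p = 0.0723 and 0.173, background 19.2%) and without replicate 4 (adjusted p = 0.264 and 0.0733, background 7.87%). With plain library totals, at a background of 45.8%, o11 was not called (adjusted p = 0.206) and ohp2 was (adjusted p = 0.033).

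**Figure D4:**
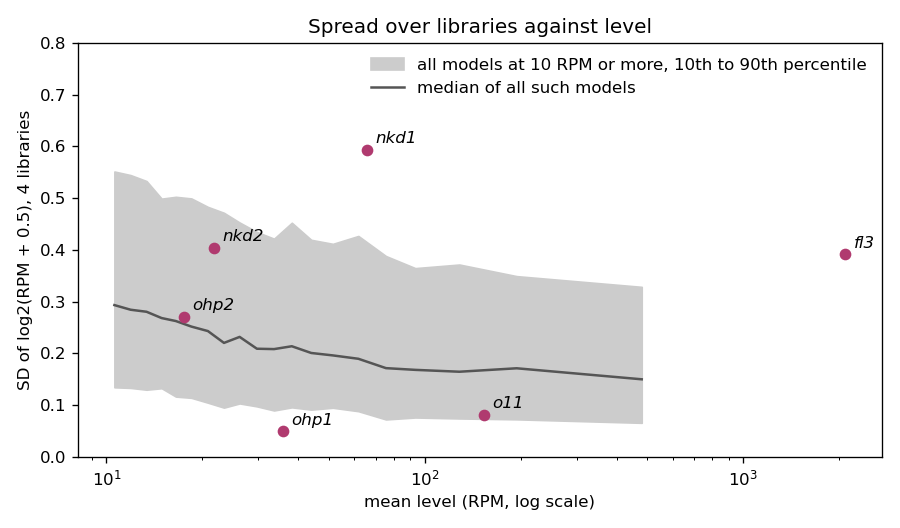
SD of log2(RPM + 0.5) over the 4 libraries against mean level in RPM on a log axis. The grey band spans the 10th to 90th percentile of all models at 10 RPM or more in bins of level, the line is their median, and points are the regulators. The nkd1 point lies above the band at 0.59, ohp1 lies below it at 0.05, and fl3 lies at higher levels than the band reaches.

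Some markers of other cell types differed between the libraries too. The summed level of the 12 BETL markers was 322, 671, 579 and 71.0 RPM in replicates 1 to 4, lowest in replicate 4, where fl3 was also lowest and nkd1 highest. The largest part in replicates 1 to 3 was betl2, at 191, 436 and 329 RPM, with 27.2 RPM in replicate 4. Of the BETL markers with reads only ebe1 was not lowest in replicate 4, with 26.2, 22.1, 25.9 and 27.2 RPM. The 3 markers of the embryo-surrounding region summed to 1.64 RPM in replicate 4 and to 22.9 to 33.9 RPM in the others. Of 6 aleurone genes 4 averaged 1 RPM or more, and the list summed to 109 to 135 RPM, with the lowest value in replicate 4, while the anthocyanin regulators c1 and r1 were at 0. One gene, cr4, was highest in replicate 4, at 29.2 RPM. Of these 4 genes the chi-square test called only sal1 (adjusted p = 0.0277, background 44.1%, and 0.0188 without replicate 3, background 40.8%). Without the filter the adjusted p of sal1 was 0.0521 (background 20.6%), or 0.0349 without replicate 3 as well (background 20.3%). The 6 embryo genes summed to 25.3 to 45.5 RPM, highest in replicate 4, with glb2, lec1 and wox5b at 0. Nearly all of this sum came from ole1 and wox2a, with means of 17.6 and 14.4 RPM. Of 6 genes of maternal and green tissue on the list 4 matched a model, and lhcb1 and cab1 did not. The 4 summed to at most 1.46 RPM, with rbcs1 and bde1 at 0. The part of tissue makeup in the differences of fl3, nkd1 and nkd2 was not tested, and in bulk tissue fewer cells of a type and less RNA per cell cannot be told apart.

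Genes with a profile like that of a regulator were sought among the 11271 other models at 10 RPM or more, by the largest departure between the centred log2 profiles in any of the 4 libraries. For nkd1 only 4 models (0.0355%) lay within 0.1. The nearest were GRMZM2G145758 at 0.06, GRMZM2G170397 at 0.08 and GRMZM2G012088 at 0.09, for which the reference gives locus numbers or clone names. GRMZM2G145758 had 18.9, 19.9, 30.7 and 43.8 RPM in replicates 1 to 4, so it followed nkd1 at a lower level. For nkd2, 18 models lay within 0.1, nearest GRMZM2G319454, GRMZM2G479684 and GRMZM2G365815. The fl3 profile had 79 such models, nearest GRMZM2G400716, GRMZM5G895175 and GRMZM2G012970.

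The other profiles had more models close to them. For ohp2, 157 models lay within 0.1, nearest AC185226.4_FG001, GRMZM2G131623 and GRMZM2G305409. The nearly even profiles of o11 and ohp1 had 522 and 692 such models. Nearest to o11 were GRMZM2G305994, GRMZM2G005947 and GRMZM2G138097, and nearest to ohp1 were GRMZM2G157878, GRMZM2G377311 and GRMZM2G042074. A profile over 4 libraries is a description only.

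The zein genes, targets of O2 and PBF, gave almost no reads. Of 30 models with a zein name, 28 were at 0 in every library, and the 30 together had 2, 1, 3 and 22 reads in replicates 1 to 4. Reads came from gz27, the gene of the gamma zein that OHP1 and OHP2 are known to activate, with 2, 1, 3 and 21 reads, and from dzs18, a delta zein gene, with 1 read in replicate 4. In RPM gz27 stood at 0.583, 0.184, 0.631 and 3.83, so replicate 4, where nkd1 was highest, stood apart. Without a filter the chi-square test called gz27 (adjusted p = 1.47e-06) against a background of 20.6%, and without replicate 3 the adjusted p was 1.33e-05, at a background of 20.3%. Without replicate 4 it was 0.681, at a background of 7.87%, so the call rests on that library. Many zein genes, though not all, are near-identical copies. For those a 0 can also come from how reads with several matches were counted, which was not tested.

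Other genes that O2 is known to activate were present in the same libraries. The pyruvate phosphate dikinase gene ppdk1 had 1055, 1150, 917 and 551 RPM, and ppdk2 had 144, 125, 97.8 and 114 RPM. The gene lkrsdh1, for the enzyme that starts lysine breakdown, had 12.5, 10.7, 6.10 and 5.84 RPM. All 3 differed between libraries in the chi-square test (adjusted p = 2.34e-196, 1.2e-06 and 0.00636), beside the background of 44.1%, and without replicate 4 lkrsdh1 was not called (adjusted p = 0.052). Without replicate 3 the adjusted p was 8.84e-195 for ppdk1, 0.0395 for ppdk2 and 0.0278 for lkrsdh1. With no filter as well, ppdk2 and lkrsdh1 were not called without replicate 3 (adjusted p = 0.0702 and 0.0502), nor lkrsdh1 without replicate 1 (0.0722) or replicate 4 (0.0925). Both ppdk1 and lkrsdh1 were lowest in replicate 4, as fl3 was. The symbol rip1 fell on 2 models, of which GRMZM2G063536, with the name b-32 of the ribosome-inactivating protein under O2 control, was at 0, and GRMZM2G052546 had 13.1 ± 4.90 RPM (SD, n = 4).

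Of 10 further regulators of the endosperm on a list of symbols, 4 matched a model. The Dof gene dof36, known for binding promoters of starch synthesis genes, reached 155 ± 27.2 RPM (SD, n = 4), close to the 153 RPM of o11 in read share. It had 140, 180, 176 and 124 RPM in replicates 1 to 4, was called in the chi-square test (adjusted p = 1.5e-09, and 1.23e-07 without replicate 3), and was lowest in replicate 4. The MADS-box gene mads47, whose product acts with O2 on zein promoters, had 1.75, 1.84, 2.73 and 2.19 RPM, and no difference between libraries was detectable without the filter (chi-square adjusted p = 0.775, and 0.826 without replicate 3). Both dof3, another Dof gene, and vp1, the B3 factor of seed maturation, were at 0 in every library.

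**Figure D5:**
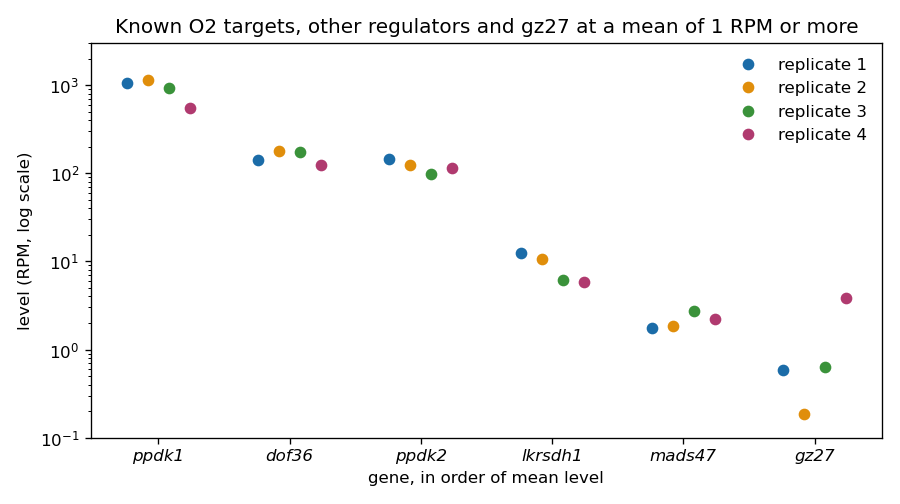
Levels in RPM on a log axis of the known O2 targets, the other regulators and the only zein gene with a mean of 1 RPM or more, 1 point per library. The gz27 point of replicate 4 lies at 3.83 RPM against at most 0.631 RPM in the others, while ppdk1 and dof36 are lowest in replicate 4, at 551 and 124 RPM.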

How the data were processed

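Per the file headers, each file gives 1 value per gene model of a library. The deposited values are a scaled signal. All libraries sum to the same total, and each value is a whole multiple of 1 step per library within 0.01 of a read, so dividing by the step recovered reads. In replicate 3 the step of 1.0039 lies near 1, so tests on reads are also given without it. Its largest distance from a whole read was 3.13e-05, against 5.23e-05 in replicate 4. Because the files hold a signal and not counts, these tests rest on recovered reads. The submitters' processing notes name bedtools, with no version or role; for the aligner, build, annotation and strand, nothing is stated there or in the labels.

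RPM is reads per 1000000 reads on models. Log values are log2(RPM + 0.5). Size factors came from edgeR 4.0.16 (TMM, filterByExpr with a minimum of 10 reads) and DESeq2 1.42.0, tests from scipy 1.17.1. The chi-square test was called at 0.05. Gene names were taken from RefSeq's table of Zm-B73-REFERENCE-NAM-5.0, with none of its coordinates. No sequences are printed. Levels per coding length were planned and not run, as lengths were not used here.

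Members and lists were chosen with earlier results of these data known. Named are all 8 members, members of the lists of zeins, regulators and O2 targets that averaged at least 1 RPM, and the 3 nearest profiles of each member at 10 RPM or more; others are named as checks or because they were at 0. Alternatives were library totals, other size factors, no filter, other pseudocounts and detection limits, and each library left out. The last was also combined with no filter, a choice made after seeing the data.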

Additional observations from a re-analysis of the deposited data

Results flagged for a closer look

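Of 26 profiles over the 4 libraries, 4 had a library set apart from the rest by a gap of 0.864 to 0.953 of the whole range, past Dixon's 95% limit. Chance alone flags about 1 in 20 groups. The zein gene gz27 was at 3.83 RPM in replicate 4 against at most 0.631 RPM in the others, and the summed zein level, which it dominates, was at 4.02 RPM in that library against 0.184 to 0.631 RPM. The summed level of sh2, bt2, wx1 and sh1 was 1.83 RPM in replicate 4 and 1.46 to 1.47 RPM in the others. It rests on few reads and on genes that went opposite ways. In replicates 1 to 4 sh1 had 0, 0, 0 and 7 reads, bt2 had 4, 5, 4 and 1, and sh2 had 1, 3, 3 and 2. Genes of maternal and green tissue summed to 0 RPM in replicate 1 and to 1.26 to 1.46 RPM in the others. Most of these reads were of zag2, with 0, 6, 5 and 7 reads. Dixon's limit takes no account of counting error, so neither of these 2 sums shows that a library truly stood apart. None of the 8 regulators was among these profiles. The cause of each was not tested.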

How the results depend on the processing

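No paired analysis was possible because all 4 libraries belong to 1 group. The number of genes that differed between libraries beyond counting error was 7289, and leaving out 1 replicate gave 2965 to 6863, the lowest without replicate 4, or 2836 to 7298 with no filter as well, again lowest without replicate 4. Zein models with reads numbered 2, and 1 to 2 when a replicate was left out, with 1 without replicate 4. The 7 neighbour differences and both duplicate ratios kept their sign under every pseudocount and left-out replicate. For pairs with the same order in every library, and for pbf1 over o2 at 0 reads, no other outcome was possible. Only nkd2 against ohp2 could have changed sign, and its log2 difference was 0.07 to 0.52 with a replicate left out. Mean levels under other size factors moved by less than 1 SD. With 4 values, leaving 1 out cannot move a mean by 1 SD, so ranges are given instead. They were 1898 to 2323 RPM for fl3, 151 to 157 for o11 and 52.8 to 73.2 for nkd1. For nkd2, ohp1 and ohp2 they were 19.9 to 24.3, 35.3 to 36.2 and 16.1 to 18.6 RPM. The pbf1 mean, which its SD exceeds, ran from 0.192 RPM without replicate 2 to 0.499 RPM. With pbf1 taken as GRMZM2G146283, 6 of the 8 regulators stayed detected at limits of 0.5, 1 and 3 RPM. The lowest of them averaged 17.5 RPM, far above each limit. The other pbf1 model, GRMZM2G146267, averaged 2.73 RPM, above the limits of 0.5 and 1 RPM but below 3 RPM. Calls of o11, nkd2, ohp2, ppdk2, lkrsdh1, sal1 and gz27 that changed are given with the results. Depth limits o2, at 0 reads, and single libraries of pbf1, with at most 5 reads on GRMZM2G146283.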
